A study of Mus musculus with 28 samples.

Results

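The transforming growth factor beta (TGF-beta) pathway is described here by 10 of its genes in mouse CD4+ T cells given IL-2 or IL-21. They were taken by name: the ligands Tgfb1 and Tgfb3, the receptors Tgfbr1 and Tgfbr2, the signal carriers Smad2 and Smad3, the inhibitor Smad7, and the nuclear corepressors Ski, Skil and Tgif1. All 10 were found among the 22480 genes of the deposited files, and 10 of 10 reached the levels required for differences (11049 genes) and for tests (10454 genes). Where a symbol had several transcripts, the one with the highest mean level stood for the gene.

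The RNA came from splenic T cells of wild type C57BL/6 mice. They were activated for 3 days through CD3 and CD28, rested overnight, and then kept without cytokine or given either IL-2 or IL-21. Cells were collected at 4 times of treatment, which were 0.5, 2, 4 and 24 h. Each of the 9 conditions is 1 library, so a difference between 2 libraries has no replicate check and carries no p-value. Only 1 library without cytokine was analysed, all 8 comparisons with control share it, and time in culture cannot be told apart from cytokine in them. The other 19 samples of the series, which are chromatin libraries, are not analysed here.

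TGF-beta is made as a latent precursor that has to be cut and released before it can act. The active ligand brings a type II receptor (Tgfbr2) and a type I receptor (Tgfbr1) together, and the type I receptor phosphorylates SMAD2 and SMAD3, which enter the nucleus with SMAD4. SMAD7 blocks the receptor, and SKI, SNON (the product of Skil) and TGIF1 hold SMAD target genes down. In T cells the pathway is known for restraining activation and for its part in regulatory, Th17 and tissue-resident cells.

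Levels are given as RPKM, reads per kilobase of transcript scaled to the library total, with 29.5 to 44.3 M reads per library. A difference is log2(RPKM + 1) in the first library minus that in the second, and 2-fold on that scale was the size at which genes were counted. Ratios are of RPKM and carry an exact 95% interval for counting error only. T cell markers were present: Cd4, Cd3d, Cd3e, Cd3g, Cd5, Cd28 and Trat1, 7 of 7 on that list, reached 1 RPKM in their highest library. Cd4 was at 207 RPKM in control, while of the CD8 T cell genes Cd8a was at 0.548 RPKM and Cd8b1 at 9.18 RPKM there. Markers of B cells were also present. Their 9 genes summed to 59.1 RPKM in control, to 57.8, 48.7, 49.7 and 26.5 RPKM with IL-2 in order of time, and to 55.7, 46.2, 42.1 and 11.9 RPKM with IL-21. Each of the 9 B cell genes had reads in every library. Summed levels of the other marker lists were lower, at 6.27 to 11.3 RPKM for CD8 T cells, 2.94 to 9.32 RPKM for macrophages, 0.603 to 2.90 RPKM for platelets, 0.490 to 2.04 RPKM for dendritic cells and 0.324 to 1.12 RPKM for NK cells. The lists differ in length, from 2 genes for CD8 T cells to 9 for B cells, so the sums do not rank these cell types. The part of such cells in the results below was not tested, and in bulk RNA fewer cells of a type and less RNA per cell cannot be told apart.

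In control the order of the 10 genes by RPKM, which allows for transcript length, was Tgfb1, Tgfbr2, Ski, Smad3, Tgif1, Skil, Smad7, Tgfbr1, Smad2 and Tgfb3. The range over the 9 libraries, highest minus lowest log2(RPKM + 1), was widest for Tgfb3 at 2.52 and for Tgif1 at 2.22, followed by Skil at 1.79, Smad7 at 1.72 and Tgfb1 at 1.36. It was narrowest for Smad2, at 0.57. The median range was 1.31 over the 10 genes and 0.80 over all 11049.

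**Figure D1:**
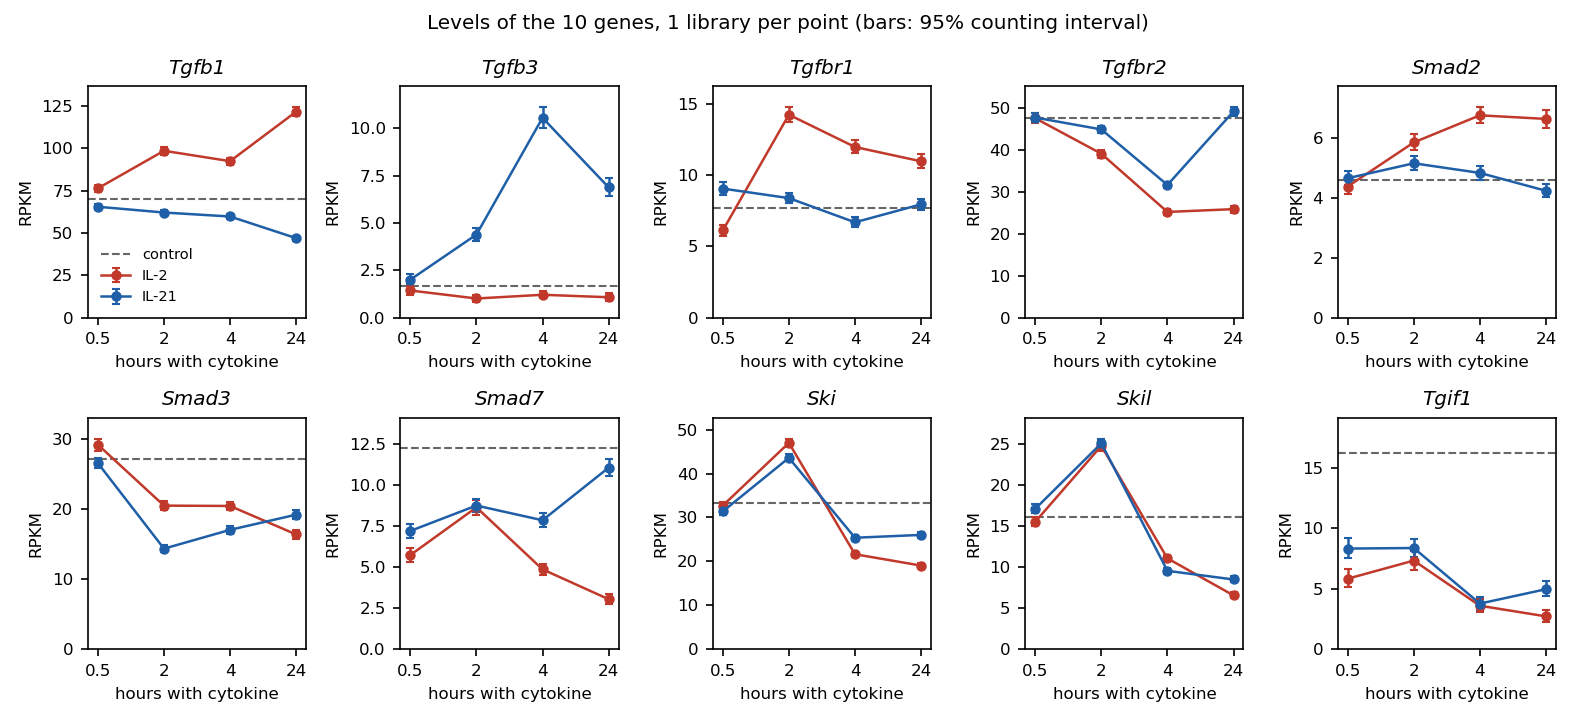
Levels of the 10 genes in RPKM against hours of treatment at evenly spaced positions, 1 panel per gene, with points for the single IL-2 and IL-21 libraries, bars for exact 95% counting intervals and a dashed line for the control library. The Tgfb1 series lie on opposite sides of the control line (46.9 RPKM with IL-21 and 122 RPKM with IL-2 at 24 h), and Tgif1 lies below it in all 8 cytokine libraries.

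The ligands parted by cytokine in opposite directions. Tgfb1, which encodes the main TGF-beta of lymphocytes, stood above control in all 4 IL-2 libraries and below it in all 4 IL-21 libraries, and Tgfb3, its relative, did the reverse. Tgfb1 (NM_011577, plus strand of chromosome 7 in mm9, 2094 bases) was at 70.0 RPKM in control. With IL-2 its level was 76.4, 98.6, 92.4 and 122 RPKM at 0.5, 2, 4 and 24 h, and with IL-21 it was 65.5, 62.1, 59.7 and 46.9 RPKM. The 9 levels did not overlap between the cytokines, and all 8 neighbouring pairs in their order were further apart than counting error. At 24 h the level was 1.74 times control with IL-2 (1.68 to 1.80) and 0.670 times control with IL-21 (0.642 to 0.700). IL-2 to IL-21 stood in a ratio of 1.17 at 0.5 h (1.12 to 1.21), 1.59 at 2 h (1.53 to 1.64), 1.55 at 4 h (1.49 to 1.60) and 2.59 at 24 h (2.49 to 2.70). The 2-fold mark was thus passed at 24 h, in the comparison between the cytokines and not in either comparison with control.

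Tgfb3 (NM_009368, minus strand of chromosome 12, 3385 bases) was the lowest of the 10 genes in control, at 1.69 RPKM from 197 reads. With IL-2 it stayed low, at 1.43, 1.01, 1.21 and 1.08 RPKM. With IL-21 it was at 2.01, 4.39, 10.6 and 6.89 RPKM, which rest on 233, 658, 1397 and 883 reads. From 2 h on the IL-21 libraries stood far above every other library. IL-21 at 0.5 h, control and the IL-2 libraries followed each other in that order with each step, neighbour to neighbour, within counting error. Compared directly with control, the IL-2 level was 0.846 times at 0.5 h (0.677 to 1.05) and 0.596 times at 2 h (0.471 to 0.752). It was 0.712 times at 4 h (0.576 to 0.881) and 0.635 times at 24 h (0.500 to 0.805). From 2 h on the interval thus lay below 1. The IL-21 level was 2.59 times control at 2 h (2.21 to 3.06), 6.24 times at 4 h (5.37 to 7.28) and 4.07 times at 24 h (3.48 to 4.77). IL-21 was 1.40 times IL-2 at 0.5 h (1.13 to 1.74), 4.35 times at 2 h (3.57 to 5.33), 8.76 times at 4 h (7.45 to 10.4) and 6.40 times at 24 h (5.26 to 7.86). On the log2(RPKM + 1) scale, which understates such low levels, the differences of IL-21 from control were 0.16, 1.00, 2.10 and 1.55.

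The balance of the ligand transcripts differed accordingly. Tgfb1 RPKM was 41.3 times Tgfb3 RPKM in control and 53.3, 97.7, 76.6 and 113 times with IL-2 in order of time. With IL-21 the same ratio of levels was 32.7, 14.1, 5.65 and 6.82. Tgfb1 remained the more abundant ligand transcript in every library.

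From 2 h of IL-2 on, Tgfbr1 stood above control and Tgfbr2 below it. With IL-21 the differences of both from control lay between -0.57 and 0.21 (log2). Tgfbr1 (NM_009370, plus strand of chromosome 4, 5666 bases), the type I receptor kinase, was at 7.70 RPKM in control, at 6.12, 14.2, 12.0 and 10.97 RPKM through the IL-2 series and at 9.06, 8.39, 6.69 and 7.95 RPKM through the IL-21 series. The 3 later IL-2 libraries were the highest of the 9 and the earliest IL-2 library was the lowest. At 0.5 h of IL-2 the ratio to control was 0.794 (0.733 to 0.860), and at 2 h it was 1.85 (1.74 to 1.97). Tgfbr2 (NM_029575, minus strand of chromosome 9, 4713 bases), the type II receptor that binds ligand, was at 47.6 RPKM in control. Its level was 47.6, 39.1, 25.2 and 25.9 RPKM with IL-2 and 47.7, 44.9, 31.6 and 49.2 RPKM with IL-21. Both cytokines had lower levels at 4 h than at 2 h, and at 24 h the IL-21 library was close to the control level while the IL-2 library was not. The IL-2 level was 0.530 times control at 4 h (0.511 to 0.549) and 0.544 times at 24 h (0.523 to 0.565), and 0.526 times the IL-21 level at 24 h (0.506 to 0.546).

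Neither receptor reached 2-fold in any comparison of the deposited RPKM. With libraries rescaled by upper quartile, Tgfbr2 after 24 h of IL-2 was at -1.04 from control and -1.05 from IL-21. Rescaling by TMM put the latter at -1.02. The ratio of the receptors ran from 6.18 Tgfbr2 per Tgfbr1 RPKM in control to 7.77, 2.74, 2.10 and 2.36 with IL-2. With IL-21 it was 5.27, 5.35, 4.73 and 6.18. The RefSeq gene table places an uncharacterised long noncoding gene across each receptor (Gm32435 for Tgfbr1, Gm31292 for Tgfbr2), and whether the counts used strand is not given, so reads of such partners cannot be told apart. The same holds for Smad3 (Gm51710) and Smad7 (Gm41776).

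Of the SMADs among the 10 genes, the inhibitor Smad7 had the widest range over the libraries, at 1.72 (log2), against 0.98 for Smad3 and 0.57 for Smad2. Smad2 (NM_010754, plus strand of chromosome 18, 8752 bases) was at 4.61 RPKM in control, at 4.39, 5.86, 6.77 and 6.65 RPKM through the IL-2 series and at 4.66, 5.16, 4.84 and 4.24 RPKM through the IL-21 series. The 3 later IL-2 libraries were the highest of the 9, with 1.47 times control at 4 h (1.37 to 1.57). Smad3 (NM_016769, minus strand of chromosome 9, 5090 bases) was at 27.2 RPKM in control, at 29.1, 20.4, 20.4 and 16.3 RPKM through the IL-2 series and at 26.5, 14.3, 17.0 and 19.2 RPKM through the IL-21 series. From 2 h on, all 6 libraries were below control and below both 0.5 h libraries. The lowest was IL-21 at 2 h, 0.527 times control (0.504 to 0.551), and IL-2 at 24 h was at 0.601 times control (0.573 to 0.631). Smad3 RPKM was 5.89 times Smad2 RPKM in control, and at 24 h it was 2.46 times with IL-2 and 4.51 times with IL-21.

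Smad7 (NM_001042660, plus strand of chromosome 18, 4441 bases), itself a TGF-beta target that feeds back on the receptor, was highest in control at 12.3 RPKM. It was at 5.74, 8.66, 4.87 and 3.05 RPKM through the IL-2 series and at 7.22, 8.77, 7.87 and 11.1 RPKM through the IL-21 series. All 8 cytokine libraries were thus below control, and the cytokines lay close together at 2 h and farthest apart at 24 h. Control was 2.14 times the IL-2 level already at 0.5 h (1.97 to 2.33) and 4.03 times at 24 h (3.63 to 4.49). At 24 h IL-21 was 3.64 times IL-2 (3.27 to 4.05). On the scale used for counting, the differences of IL-2 from control were -0.98, -0.46, -1.18 and -1.72, so the 0.5 h library missed the 2-fold mark narrowly.

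**Figure D2:**
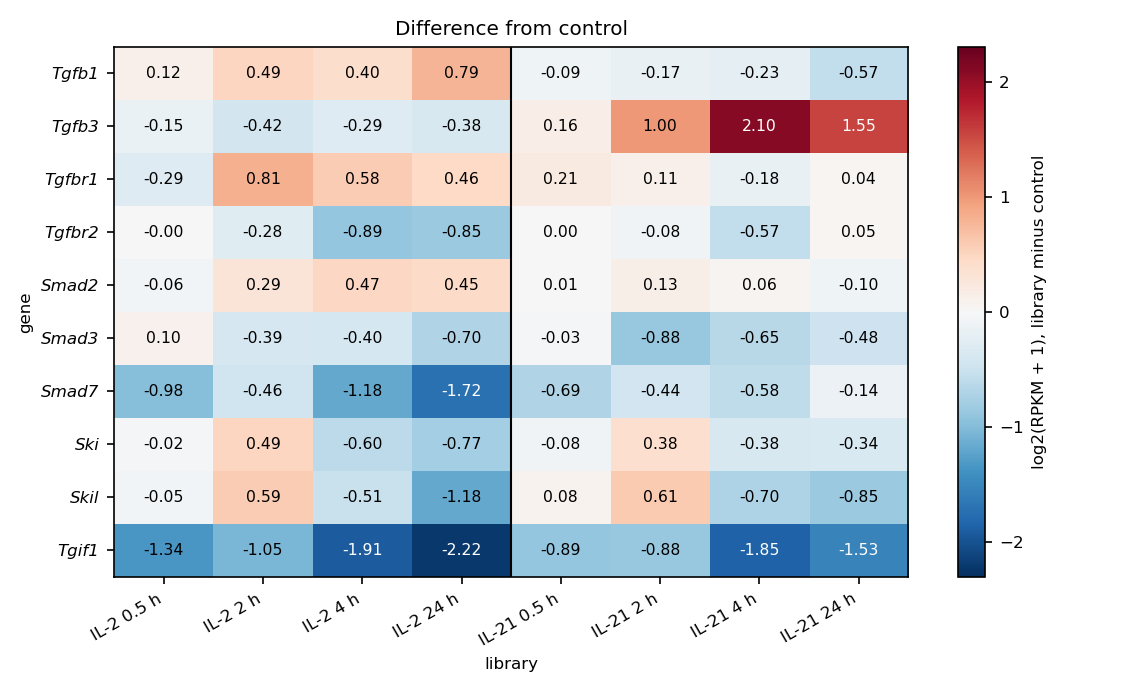
Heat map of log2(RPKM + 1) in each of the 8 cytokine libraries minus control, with genes in rows ordered by role, libraries in columns and the value printed in each cell. Tgif1 is negative throughout (-0.88 to -2.22), and the most positive cell is Tgfb3 after 4 h of IL-21, at 2.10.

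Of the corepressors, Ski and Skil had their highest libraries at 2 h with either cytokine and were below control at 4 and 24 h, and Tgif1 was below control from 0.5 h on. Ski (NM_011385, minus strand of chromosome 4, 5465 bases), a SMAD-binding corepressor, was at 33.3 RPKM in control, at 32.7, 47.0, 21.6 and 19.0 RPKM through the IL-2 series and at 31.4, 43.6, 25.4 and 26.0 RPKM through the IL-21 series. At 2 h the ratio to control was 1.41 with IL-2 (1.37 to 1.46) and 1.31 with IL-21 (1.27 to 1.35). Skil (NM_001039090, plus strand of chromosome 3, 6579 bases), its close relative and a known TGF-beta target, was at 16.1 RPKM in control, at 15.5, 24.7, 11.04 and 6.53 RPKM through the IL-2 series and at 17.1, 25.04, 9.52 and 8.47 RPKM through the IL-21 series. The 2 h libraries were not apart beyond counting error, at 1.53 times control with IL-2 (1.47 to 1.60) and 1.55 times with IL-21 (1.49 to 1.62). By 24 h control was 2.47 times the IL-2 level (2.32 to 2.63) and 1.90 times the IL-21 level (1.80 to 2.01).

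Tgif1 (NM_001164074, minus strand of chromosome 17, 1380 bases), a homeodomain corepressor of SMAD2 and SMAD3, was at 16.2 RPKM in control from 770 reads. It was at 5.82, 7.32, 3.59 and 2.71 RPKM through the IL-2 series and at 8.32, 8.36, 3.77 and 4.95 RPKM through the IL-21 series. No cytokine library came near control, and the lowest was IL-2 at 24 h with 116 reads. Control was 2.79 times the IL-2 level at 0.5 h (2.41 to 3.24), 2.22 times at 2 h (1.95 to 2.52), 4.53 times at 4 h (3.87 to 5.32) and 5.99 times at 24 h (4.93 to 7.35). Against IL-21 the same ratio was 1.95 (1.73 to 2.21), 1.94 (1.73 to 2.18), 4.31 (3.69 to 5.06) and 3.28 (2.84 to 3.79). The files list 5 Tgif1 transcripts, and their differences from control spread by at most 0.07 (log2).

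STAT5 and STAT3, the main signal carriers of IL-2 and IL-21, bind GAS motifs, and 1 of the 5 RefSeq windows around starts of Tgif1 held one. Any part of that motif in the levels of Tgif1 was not tested. The search covered 11 RefSeq windows of 300 bases (build GRCm38.p6), for 6 of the 10 genes. These were 5 for Tgif1, 2 for Tgfbr1 and 1 each for Ski, Tgfb1, Smad3 and Tgfbr2. The motif TTCNNNGAA, which reads the same on both strands, was in 1 of these 11 windows and in 8.30% of all 32851 windows. The 1 of 11 was thus near the share of all windows. The window is shown because it was the only 1 of the 11 with a match. It was picked after the search, and it was not tied to the transcript counted. The sequence covers the 250 bases before the start, on the minus strand at chr17:70846778-70847027 in GRCm38.p6, with the match in capitals, 183 to 175 bases before the start.
Tgif1 upstream window: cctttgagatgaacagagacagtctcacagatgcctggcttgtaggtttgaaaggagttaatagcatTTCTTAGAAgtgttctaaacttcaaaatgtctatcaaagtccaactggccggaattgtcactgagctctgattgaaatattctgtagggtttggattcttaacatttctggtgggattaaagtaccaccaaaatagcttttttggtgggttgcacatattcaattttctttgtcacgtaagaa
The palindromic SMAD element GTCTAGAC was in 0 of the 11 windows and in 0.213% of all windows. The short SMAD element CAGAC, searched on both strands, was in 5 of the 11 and in 49.6% of all. TGTCA, the core bound by TGIF proteins, was in 5 of the 11 and in 45.4% of all. The windows of Tgfb3, Skil, Smad2 and Smad7 were not searched. A match here is a string of letters and not a measured binding site.

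Counted at 2-fold against control, 4 of the 10 genes passed in 1 or more of the 8 libraries: Tgfb3, Smad7, Skil and Tgif1. Over all genes that share was 21.7%. With 0.1 in place of 1 added to RPKM, the same 4 genes passed, as did 32.4% of all genes. After 0.5 h of IL-2, 1 gene passed, Tgif1 at -1.34, where 0.443% of all genes passed and 0.0362% passed as lower. After 2 h of IL-2 it was again Tgif1 alone at -1.05 (4.46% of all genes, 1.31% as lower). Smad7 and Tgif1 passed after 4 h of IL-2 (8.67%, 3.29% as lower), and Smad7, Skil and Tgif1 after 24 h (16.2%, 6.64% as lower). All of these calls with IL-2 were lower than control. With IL-21, 0 genes passed at 0.5 h (0.38% of all genes) and 1 at 2 h, which was Tgfb3 (higher, 2.9%). Tgfb3 (higher) and Tgif1 (lower) passed at 4 h (2.53%) and at 24 h (3.48%). The median difference of the 10 genes was lowest after 24 h of IL-2, at -0.74, against 0.05 over all genes, and it was -0.24 against -0.0039 after 24 h of IL-21. At 4 h the cytokines were closer, with -0.45 against 0.0088 for IL-2 and -0.48 against 0.014 for IL-21. The T cell markers, Cd4 among them, moved alongside: 6 of 7 were lower after 24 h of IL-2, with a median of -0.83 and a sum of 824 RPKM against 1400.1 RPKM in control. Their median was already -0.65 at 4 h of IL-2, while with IL-21 at 24 h it was 0.03. Their part in the comparisons with control was not tested.

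Between the cytokines at the same time, 3 of the 10 genes passed 2-fold at 1 or more times: Tgfb1, Tgfb3 and Smad7. Over all genes that share was 17.6%. With 0.1 in place of 1 added to RPKM, the same 3 genes passed, as did 25.7% of all genes. At 0.5 h 0 genes passed (0.507% of all genes), at 2 h and at 4 h Tgfb3 passed (1.33% and 3.91%), and at 24 h Tgfb1, Tgfb3 and Smad7 passed (15.9%). Of these, Tgfb1 was higher with IL-2, and Tgfb3 and Smad7 were higher with IL-21. Without the 24 h libraries, 1 of the 3 remained, Tgfb3 (4.46% of all genes). Marker sums also differed between the cytokines at 24 h. The 7 T cell markers summed to 824 RPKM with IL-2 and 1359 RPKM with IL-21, and B cell markers to 26.5 and 11.9 RPKM. In the same order macrophage markers summed to 2.94 and 9.32 RPKM, CD8 T cell markers to 6.27 and 11.3 RPKM, platelet markers to 0.603 and 2.90 RPKM, and dendritic cell markers to 0.490 and 1.85 RPKM. Their part in the 24 h differences was not tested.

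**Figure D3:**
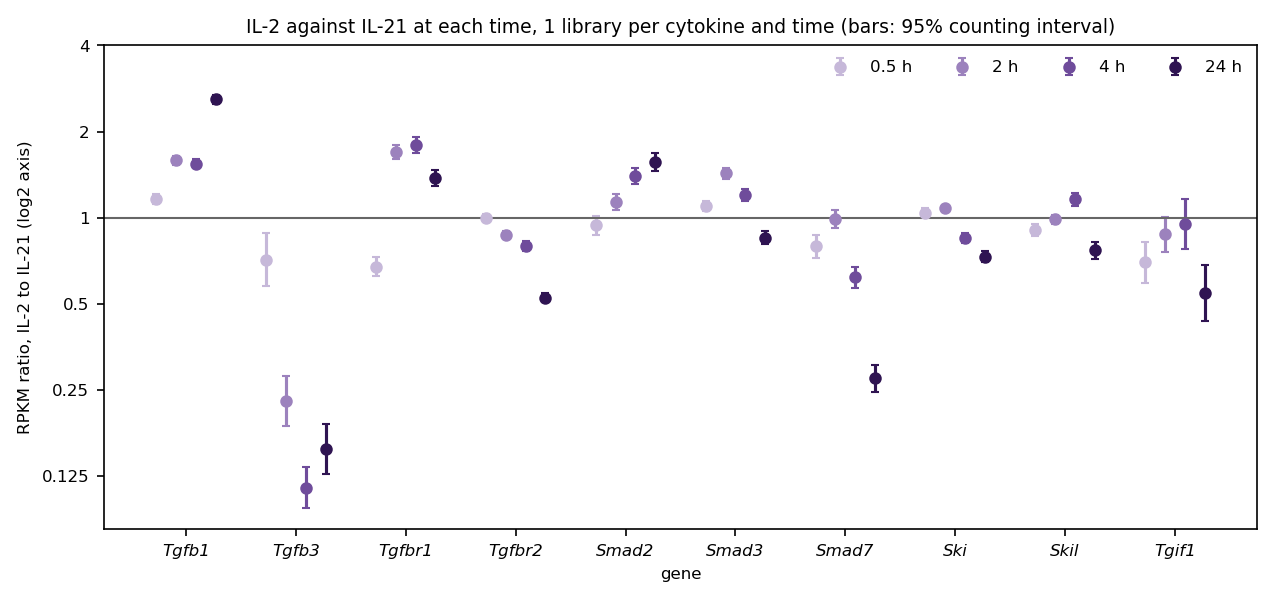
Ratio of RPKM in the IL-2 library to that in the IL-21 library of the same time, on a log2 axis, for each of the 10 genes at 0.5, 2, 4 and 24 h, with bars for exact 95% counting intervals. Tgfb1 lies on the IL-2 side at all 4 times (1.17 to 2.59), and Tgfb3 lies on the IL-21 side at all 4.

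The 4 times were also used as repeats of the cytokine comparison, in a quasi-likelihood test by edgeR, adjusted by Benjamini-Hochberg over 10454 genes. Of the 10 genes, 0 passed an adjusted p of 0.05, where 0.0383% of all genes passed. The unadjusted p was below 0.05 for 3 (Tgfb1, Tgfb3 and Smad7), against 14.7% of all genes. Tgfb1 was higher with IL-2 by 0.68 (log2, SE 0.20, edgeR adjusted p = 0.280) at 4 of 4 times. Tgfb3 differed by -2.18 (SE 0.43, edgeR adjusted p = 0.241), with IL-21 higher at 4 of 4 times, and Smad7 by -0.75 (SE 0.31, edgeR adjusted p = 0.336). For Smad7 IL-21 was higher at 3 of 4 times, and at 2 h the ratio of 0.987 (0.919 to 1.06) was within counting error. DESeq2 on the same counts called 2 of the 10, Tgfb1 (DESeq2 adjusted p = 0.0376) and Tgfb3 (DESeq2 adjusted p = 5.7e-06), where it called 4.37% of all genes. limma on log2(RPKM + 1) called 0. Over all alternatives the adjusted p ran from 0.0376 to 0.598 for Tgfb1 and from 5.7e-06 to 0.598 for Tgfb3, which edgeR passed without the 0.5 h libraries (edgeR adjusted p = 0.0109). Whether the libraries stem from separate mice or cultures is not stated in the labels. The p-values therefore measure the spread of these libraries alone, part of which may be technical. With 1 library per condition, that spread also holds any change of the cytokine difference with time. A difference that grows with time thus adds to the spread it is tested against.

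For 24 h against 0.5 h over both cytokines, edgeR again called 0 of the 10 genes, where 0.287% of all genes passed. Unadjusted p was below 0.05 for 4, Ski, Skil, Smad3 and Tgif1, against 20.5% of all genes, and each of them was lower at 24 h. Skil was lower by the most, at -1.12 (log2, SE 0.21, edgeR adjusted p = 0.0906), and it was lower under both cytokines. Tgif1 was at -0.90 (SE 0.27, edgeR adjusted p = 0.169), Smad3 at -0.64 (SE 0.23, edgeR adjusted p = 0.200) and Ski at -0.52 (SE 0.21, edgeR adjusted p = 0.234). DESeq2 called Skil (DESeq2 adjusted p = 0.000379) and none of the other 9, where it called 8.04% of all genes, and limma called 0. Over the alternatives the adjusted p of Skil ran from 0.000379 to 0.208.

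A further test asked whether the IL-2 to IL-21 ratio changed with each doubling of time. Here 5.19% of all genes passed, with 0 of the 10. Unadjusted p was below 0.05 for 5 of them (31.8% of all genes). The slope per doubling was 0.20 for Tgfb1 (SE 0.05, edgeR adjusted p = 0.0599), -0.17 for Tgfbr2 (SE 0.05, edgeR adjusted p = 0.0779), -0.30 for Smad7 (SE 0.09, edgeR adjusted p = 0.0791), -0.39 for Tgfb3 (SE 0.13, edgeR adjusted p = 0.104) and 0.13 for Smad2 (SE 0.05, edgeR adjusted p = 0.130). DESeq2 called 3, Smad7 (DESeq2 adjusted p = 0.0161), Tgfb3 (DESeq2 adjusted p = 0.0200) and Tgfb1 (DESeq2 adjusted p = 0.0260), where it called 13.4% of all genes. limma called 0. Over the alternatives the adjusted p ran from 2.2e-06 to 0.639 for Smad7, from 0.000794 to 0.527 for Tgfb3 and from 0.0256 to 0.185 for Tgfb1. The design leaves 2 residual degrees of freedom, and only 1 once a time is left out. Over all 10454 genes, leaving out 1 time passed 922 higher and 1044 lower without 0.5 h, and 221 and 265 without 2 h. It passed 1110 and 968 without 4 h, and 1031 and 515 without 24 h, against 263 and 280 with all times. Among the 10 genes, leaving out 1 time gave between 1 and 4 calls. These were Smad7 without 0.5 h, Tgfb3 without 2 h, Smad7, Tgfb1, Tgfb3 and Tgfbr2 without 4 h, and Tgfb3 and Tgfbr1 without 24 h.

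Other genes of the pathway were read from lists of 78 names, of which 76 were in the files and 51 reached 1 RPKM. Of those 51, 15 (29.4%) were at or over 2-fold from control in 1 or more libraries, beside 21.7% of all genes. edgeR passed 0 of the 49 tested for the cytokines over 4 times (12 at unadjusted p below 0.05, with 14.7% of all genes) and 0 for 24 h against 0.5 h (15 unadjusted, with 20.5% of all genes). For the change of the cytokine ratio with time it passed 3, where 5.19% of all genes passed, and 14 unadjusted, with 31.8% of all genes. The 3 of 49 that passed were near the share of all genes. The ratio rose with time for Nedd4l, a ubiquitin ligase that acts on SMADs and receptors, with a slope of 0.36 per doubling (SE 0.07, edgeR adjusted p = 0.0462). It fell for Inhba, an activin subunit, with -0.45 (SE 0.09, edgeR adjusted p = 0.0462), and for Cd101, with -0.29 (SE 0.06, edgeR adjusted p = 0.0465). All 3 calls were close to the threshold. Nedd4l did not pass with limma or with DESeq2-style size factors in edgeR (adjusted p up to 0.0514), Inhba did not without 0.5 h or 2 h (up to 0.0772), and Cd101 did not with those size factors or without 2 h or 24 h (up to 0.154).

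Of 20 other ligand and latent complex genes in the files, 10 reached 1 RPKM and 4 of these passed 2-fold in 1 or more libraries, where 21.7% of all genes did. Lrrc32, which encodes GARP, the protein that holds latent TGF-beta on the surface of regulatory T cells, was at 8.53 RPKM in control. It was at 11.1, 28.5, 41.1 and 42.6 RPKM through the IL-2 series and at 8.34, 8.69, 15.6 and 20.9 RPKM through the IL-21 series. IL-2 was thus above IL-21 at every time, at 3.28 times its level at 2 h (3.09 to 3.49) and 2.04 times at 24 h (1.95 to 2.13). Lrrc33, whose product also tethers latent TGF-beta, was at 8.75 RPKM in control, at 14.6, 12.2, 14.9 and 20.3 RPKM through the IL-2 series and at 7.62, 6.71, 8.13 and 11.1 RPKM through the IL-21 series. Furin, the protease that cuts the precursor, was at 23.7 RPKM in control, at 44.5, 51.4, 29.3 and 16.9 RPKM through the IL-2 series and at 29.6, 29.8, 18.8 and 20.1 RPKM through the IL-21 series. Furin was above control early and below it at 24 h with both cytokines. Itgb6, an integrin chain that releases latent TGF-beta in epithelia, ran from 0.679 RPKM after 4 h of IL-21 to 9.31 RPKM after 24 h of IL-21, with 4.05 RPKM in control.

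**Figure D4:**
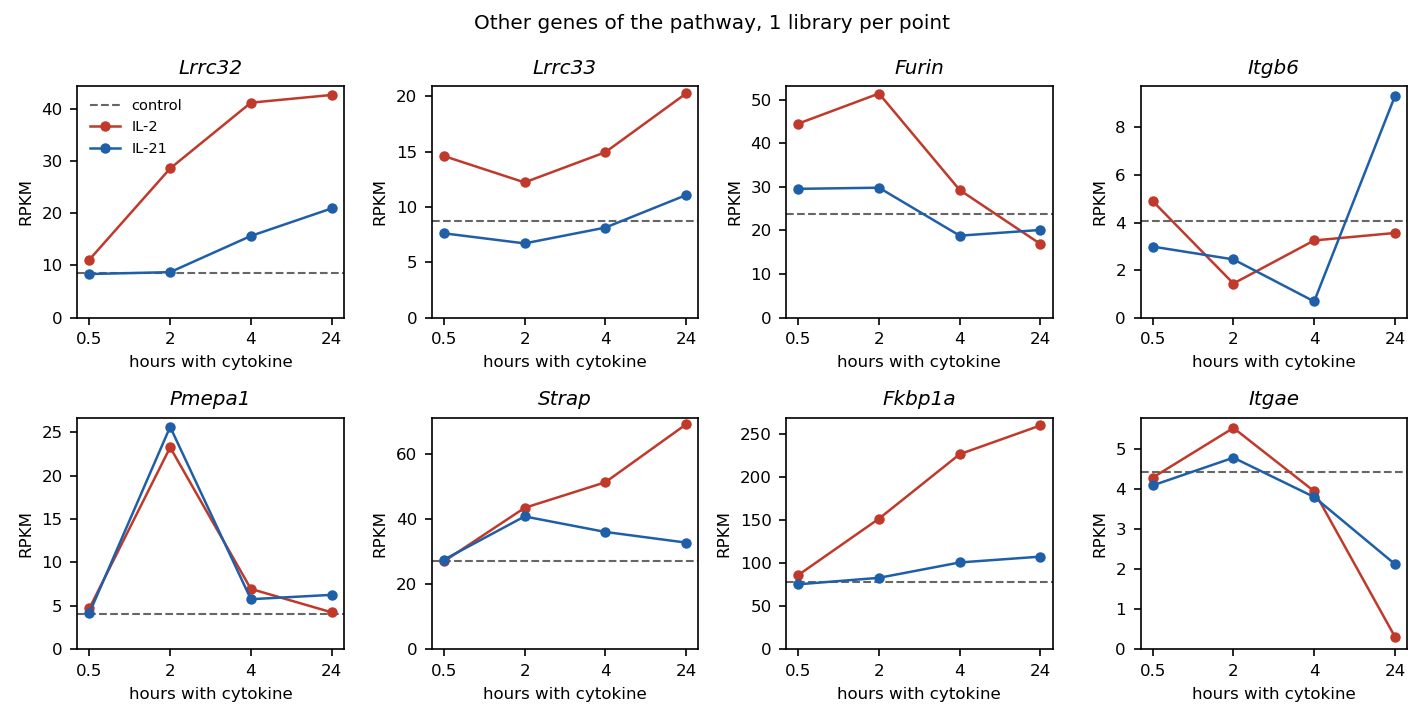
Levels in RPKM against hours of treatment for 8 other pathway genes, at evenly spaced positions, with points for the single IL-2 and IL-21 libraries joined by lines and a dashed line for control. The IL-2 points of Lrrc32 and Fkbp1a lie above the IL-21 points at all 4 times, while Pmepa1 is high at 2 h with both cytokines (23.3 and 25.6 RPKM).

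None of the 7 other receptors of the family and of the 3 other SMADs that reached 1 RPKM passed 2-fold in any library. The receptors farthest from control were Bmpr1a at 0.91 after 24 h of IL-2, Eng at -0.83 after 4 h of IL-2, Acvrl1 at -0.74 after 2 h of IL-21, and Acvr2a at 0.72 after 24 h of IL-21. Of the SMADs that carry BMP signals, Smad5 was 0.55 above control after 2 h of IL-21 and Smad1 was 0.54 above it after 24 h of IL-21. Smad4, the common partner of SMAD2 and SMAD3, was at 16.9 RPKM in control and differed from it by -0.10 to 0.30 (log2). Of 21 other regulators of SMADs and receptors at 1 RPKM or more, 3 passed, where 21.7% of all genes did. Pmepa1, a TGF-beta target that sequesters SMADs, was at 4.03 RPKM in control. At 2 h it reached 23.3 RPKM with IL-2 and 25.6 RPKM with IL-21. Those levels were 5.77 times (5.30 to 6.29) and 6.35 times control (5.85 to 6.91), and at the other times Pmepa1 lay between 4.16 and 6.94 RPKM. The 2 h libraries were thus the highest for Pmepa1 as they were for Ski and Skil. Fkbp1a, which encodes FKBP12, a binder of the type I receptor, was at 77.7 RPKM in control, at 86.1, 152, 227 and 260.2 RPKM through the IL-2 series and at 75.4, 82.9, 101 and 108 RPKM through the IL-21 series. Strap, whose product strengthens the SMAD7 block, was 1.32 (log2) above control after 24 h of IL-2 and 0.27 above it after 24 h of IL-21.

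Of 10 genes on the list of TGF-beta targets at 1 RPKM or more, 8 passed 2-fold in 1 or more libraries, where 21.7% of all genes did, and they did so in both directions. Itgae, which encodes the CD103 integrin chain, was at 4.42 RPKM in control, at 4.29, 5.53, 3.95 and 0.311 RPKM through the IL-2 series and at 4.09, 4.79, 3.80 and 2.13 RPKM through the IL-21 series. The 24 h IL-2 library stood apart, at 0.0703 times control (0.0490 to 0.0980). Id1, a target shared with BMP signals, was 3.77 (log2) above control after 0.5 h of IL-2, from a control of 17 reads. Id3 differed from control by -1.17, -1.03, -1.12 and -0.43 with IL-2 and by -1.42, -1.52, -0.83 and -1.10 with IL-21. Cd101 differed by -1.52 after 24 h of IL-2 and by -0.35 after 24 h of IL-21. The median of the 10 targets after 24 h of IL-2 was -0.78, against 0.05 over all genes, and after 24 h of IL-21 it was -0.29 against -0.0039. Many of these genes also answer to other signals.

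For the 3 widest-ranging of the 10 genes, the genes with the nearest course were found by the root mean square distance over the 8 differences from control. Nearest to Tgfb3 were Flot1 at 0.27, Bcl3 at 0.33 and Lgmn at 0.33 (log2), where a flat course lay at 1.02. Flot1 was at 23.5 RPKM in control and at 89.4 RPKM after 4 h of IL-21, and Bcl3 was at 46.1 and 148 RPKM in the same libraries. Nearest to Tgif1 were Rgs16 at 0.36, Osgin1 at 0.42 and Tsc22d3 at 0.49, with a flat course at 1.53. Nearest to Skil were Ifih1 at 0.27, Acsbg1 at 0.27 and Zfp28 at 0.28, with a flat course at 0.67. These distances use log2(RPKM + 1), which understates changes at low levels such as those of Tgfb3. They rest on 9 single libraries and share 1 control.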

How the data were processed

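RNA-seq libraries of 9 conditions were used, grouped by GEO's labels. Per the labels' protocols, total RNA was made into libraries with a stranded kit. The submitters' processing notes name the build mm9 and, without roles, HOMER, SAMtools, TopHat2 2.0.11 and Bowtie 0.12.9. Not given in the sources used here were the annotation, the counting program and the use of strand. The deposited tables hold, per the file headers, for 29543 RefSeq transcripts of 23222 symbols, whole read counts and RPKM values, and the authors' RPKM equalled count over length and library total in each table. Symbols of short RNAs (742) were left out.

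Differences used log2(RPKM + 1) over 11049 genes whose highest library reached 1 RPKM. A read in 1 kb is worth 0.0226 to 0.0339 RPKM, and intervals (exact conditional binomial for ratios, exact Poisson for levels) cover counting error only (the reads carry no molecular identifiers). Tests ran on the deposited counts of 10454 genes whose mean reached 1 RPKM: edgeR 4.0.16 quasi-likelihood with TMM scaling, time as a factor and 3 residual degrees of freedom (2 for the slope), with DESeq2 1.42.0 and limma 3.58.1 as alternatives, in R 4.3.3. The scripts were tested on simulated counts. Python 3.11.15 with pandas 2.3.3 and SciPy 1.17.1 did the rest.

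The 10 genes and the gene lists were chosen with earlier results of these data known. Named beside the 10 were, by rule, up to 4 genes per list with the largest difference from control, any list gene passing edgeR, and the 3 nearest courses of the 3 widest-ranging genes. Alternatives covered pseudocount, scaling, filter, transcript choice, threshold and leaving out each time.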

Additional observations from a re-analysis of the deposited data

Results flagged for a closer look

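Tgfb1 was above control in all 4 IL-2 libraries and below it in all 4 IL-21 libraries, which is why it is listed here. Its mean difference of IL-2 from IL-21 over the 4 times was 0.68 (log2), and the test of that difference did not pass (edgeR adjusted p = 0.280, 0.0376 to 0.598 over the alternatives).

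Tgfb3 is listed because its libraries lay on the opposite sides, with all 4 IL-2 libraries below control and all 4 IL-21 libraries above it. Its mean difference of IL-2 from IL-21 was -2.18 (log2), which did not pass either (edgeR adjusted p = 0.241, 5.7e-06 to 0.598 over the alternatives). Both patterns use the same single control library.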

How the results depend on the processing

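Of the alternative values of single genes, 1575 were labelled the same as in the main setting, 109 moved, 15 newly passed, 7 no longer passed and 6 reversed. For differences between 2 libraries these labels do not track the 2-fold mark. They track direction only where the main difference was at least 2-fold. Smad3 after 0.5 h of IL-21, for example, was at -0.034 from control and at 0.0093 with TMM scaling, and it is not among the 6. Counts of the 10 genes that passed differed as follows, and where no reason is given the cause was not tested. For IL-2 against IL-21 over the 4 times DESeq2 passed 2, and leaving out 1 time gave 0 to 1 (Tgfb3 without 0.5 h, edgeR adjusted p = 0.0109). For 24 h against 0.5 h DESeq2 passed 1, and leaving out 2 h or 4 h gave 0 each; without 0.5 h or 24 h it has no value. For the slope DESeq2 passed 3, and leaving out 1 time, which leaves 1 residual degree of freedom, gave 1 to 4. A threshold of 1.5-fold, which by its construction takes in more, gave 9 of 10 genes from control (54.3% of all genes) and 6 of 10 between the cytokines (43.8%). Without the 24 h libraries, an alternative chosen after seeing the data, 3 genes differed from control by 2-fold (Tgfb3, Smad7 and Tgif1, with 11.2% of all genes) and 1 between the cytokines (Tgfb3, with 4.46%).

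Of the values that reversed, Smad3 between the cytokines ran from -0.0055 (without 2 h) to 0.27 (without 24 h) when 1 time was left out. Tgfb1 at 24 h against 0.5 h was -0.0072 with upper quartile scaling. Leaving out 0.5 h and leaving out 24 h gave slopes of opposite sign for Tgfbr1 (-0.12 and 0.51), Smad3 (-0.23 and 0.078), Skil (-0.15 and 0.12) and Tgif1 (-0.23 and 0.16). With all times these slopes were 0.16, -0.083, -0.044 and -0.069 in the same order. Their direction thus depended on the time left out. Upper quartile scaling put the median of all genes after 24 h of IL-2 at -0.11, against 0.05, and Tgfbr2 there at -1.04 from control and -1.05 from IL-21; TMM put the latter at -1.02. With a pseudocount of 0.1, Smad7 after 0.5 h of IL-2 was at -1.08. The counts of the 10 genes stayed at 4 from control and 3 between the cytokines there, with 32.4% and 25.7% of all genes. Without the filter on low genes the counts were also 4 and 3, with 10.7% and 8.64% of all genes. Over all genes, the cytokine test passed 4 genes with edgeR and 448 with DESeq2, 19 without the filter, 119 without 0.5 h, 0 without 4 h or 24 h and 1 without the time factor. The 24 h test passed 30 with edgeR and 840 with DESeq2, 47 with limma, 66 with upper quartile scaling, 145 without the filter and 0 without 4 h. The slope test passed 263 higher and 280 lower with edgeR, 722 and 678 with DESeq2, 359 and 589 with upper quartile scaling, 555 and 461 without the filter, 922 and 1044 without 0.5 h, 1110 and 968 without 4 h, and 1031 and 515 without 24 h. No paired analysis was possible because the RNA libraries carry no replicate numbers. Matching of the cytokines by time is part of the edgeR test itself, and without the time factor it passed 0 of the 10 genes.

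Depth limited Tgfb3 (113 reads after 24 h of IL-2) and Tgif1 (116 reads there) most.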
